A study of Mus musculus with 7 samples.

Results

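Narrow H3K27me3 peaks that stood at the ends of genes in control epidermal progenitors and had no counterpart in Ring1a/b 2KO cells numbered 759, of 3631 control peaks in all. They were chosen by 3 conditions: a width under 8000 bp, no base shared with any peak of the 2KO list, and an overlap with the start or end coordinate of a protein-coding gene, each extended by 1 kb both ways. They covered 3.03 Mb and met 802 protein-coding genes in 821 pairs of a peak and a gene. Because the conditions used width, place and the 2KO list, the absence of a 2KO peak is a description here and not a result. The nearest like set was 704 narrow control peaks at gene ends that a 2KO peak did meet. They covered 3.48 Mb at 770 genes and are set beside the 759 as the shared peaks.

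The chromatin came from sorted interfollicular epidermis of mice at postnatal day 0. Cells were gated on EpCAM and Sca1 with high α6-integrin, which marks the basal layer. Control cells had 2 H3K27me3 libraries and Ring1a/b 2KO cells, which lack both catalytic subunits of Polycomb repressive complex 1, had 2 as well, titled H3K27me1 although their antibody label and the name of their peak list say H3K27me3. A control input library and 2 libraries of Eed cKO cells were not analysed here. The labels name no Cre driver for the knockout alleles, no litter and no pooling of animals. Each genotype was represented by 1 list of peak coordinates, 3631 peaks over 24.8 Mb for control and 2340 over 16.4 Mb for 2KO, so no difference between genotypes could be tested against replicate spread.

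H3K27me3 is the trimethyl mark that Polycomb repressive complex 2 places on histone H3, and it gathers over the CpG-rich promoters of silent developmental genes. Polycomb repressive complex 1, with Ring1a or Ring1b as its ubiquitin ligase, modifies histone H2A, and each complex can be recruited by the other's mark. In skin epithelium the Polycomb complexes are known for holding non-epidermal programmes, such as the Merkel cell programme, silent in progenitors.

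The promoters under these peaks ranged from CpG-free to CpG-dense, and 5 sequences are printed to show that range and the promoters of a wide member and a Wnt ligand. Each is the 250 bases before a transcript start that lies under the peak, read 5′ to 3′ on the transcript's strand from the RefSeq promoter table of GRCm38.p6, the assembly of mm10, with every CG in capitals. The Kcnk1 window at chr8:125994852-125995101 (plus strand), before a start of a background potassium channel gene, had the lowest CpG ratio of the 421 listed start sites under members, with 0 CG and a GC content of 44.4%. The CpG ratio is the CG count times the length divided by the product of the C and G counts.
Kcnk1: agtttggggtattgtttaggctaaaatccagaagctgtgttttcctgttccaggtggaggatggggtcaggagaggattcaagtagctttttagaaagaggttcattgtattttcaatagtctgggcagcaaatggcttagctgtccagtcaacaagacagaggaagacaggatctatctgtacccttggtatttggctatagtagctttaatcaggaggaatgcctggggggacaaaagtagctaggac
The Megf6 window at chr4:154170463-154170712 (plus strand) stood in the middle of the 421, with 13 CG and a ratio of 0.678.
Megf6: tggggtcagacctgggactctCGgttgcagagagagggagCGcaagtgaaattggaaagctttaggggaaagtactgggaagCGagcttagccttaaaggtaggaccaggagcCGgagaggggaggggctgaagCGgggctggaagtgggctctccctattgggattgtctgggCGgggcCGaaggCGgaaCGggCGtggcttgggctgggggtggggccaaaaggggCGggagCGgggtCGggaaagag
The Rasgef1c window at chr11:49901911-49902160 (plus strand), before a Ras guanine nucleotide exchange factor gene, had the highest ratio, 1.20, with 48 CG and a GC content of 82.4%.
Rasgef1c: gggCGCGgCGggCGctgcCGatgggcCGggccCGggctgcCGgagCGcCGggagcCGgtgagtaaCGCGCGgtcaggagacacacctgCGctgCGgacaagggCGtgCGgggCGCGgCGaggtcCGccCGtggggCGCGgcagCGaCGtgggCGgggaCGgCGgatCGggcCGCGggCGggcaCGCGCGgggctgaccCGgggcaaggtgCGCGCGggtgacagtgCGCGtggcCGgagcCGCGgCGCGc
The Wnt11 window at chr7:98834862-98835111 (plus strand) had the second highest ratio, 1.18, with 37 CG.
Wnt11: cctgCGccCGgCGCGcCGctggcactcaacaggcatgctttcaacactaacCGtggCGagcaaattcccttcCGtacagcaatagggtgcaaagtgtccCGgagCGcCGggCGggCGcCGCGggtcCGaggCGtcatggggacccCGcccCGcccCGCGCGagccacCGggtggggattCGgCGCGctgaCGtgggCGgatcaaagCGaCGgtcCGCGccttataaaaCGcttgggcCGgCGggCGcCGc
The Shisa2 window at chr14:59625031-59625280 (plus strand) lay under the widest member that covered a listed start site, 7854 bp, and had 14 CG and a ratio of 0.717.
Shisa2: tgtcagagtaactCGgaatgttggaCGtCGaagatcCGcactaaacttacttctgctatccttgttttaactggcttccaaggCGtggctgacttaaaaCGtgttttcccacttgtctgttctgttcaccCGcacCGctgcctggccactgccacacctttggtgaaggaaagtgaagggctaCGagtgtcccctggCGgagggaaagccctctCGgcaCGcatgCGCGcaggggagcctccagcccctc
Over all 32851 windows of the table the quartiles of the ratio were 0.167, 0.374 and 0.723, and 92.1% of windows held at least 1 CG. The Kcnk1 window thus lay below the lowest quartile and the Rasgef1c and Wnt11 windows above the highest. The table listed only 600 of the 802 genes (74.8%), under the 80% needed to describe the set, so a check of GC or CpG content over all members is void. At least 388 of the 802 genes had a listed transcript start under their peak.

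Of the 1463 narrow control peaks at gene ends, 759 had no 2KO peak, or 51.9% (exact Clopper-Pearson 95% interval 49.3 to 54.5). The same share over all 3631 control peaks was 52.6%, so narrow gene-end peaks were absent from the 2KO list about as often as control peaks in general. It was 65.0% (882 of 1356) for narrow control peaks away from gene ends and 21.2% (116 of 547) for gene-end peaks of 8000 bp or more. These intervals cover counting error only. Where no peak was called the mark may still be present below the caller's threshold, and in bulk chromatin fewer marked cells and less of the mark per cell cannot be told apart.

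Members were narrower than the shared peaks. Their median width was 3781 bp, with quartiles at 2693.5 and 5281 bp and a range of 570 to 7976 bp, against a median of 4900 bp and quartiles at 3723.5 and 6266.5 bp for the shared peaks. Below 2000 bp, 93 of 114 narrow gene-end peaks had no 2KO peak (81.6%, 73.2 to 88.2). The share was 62.1% from 2000 to 4000 bp, 45.0% from 4000 to 6000 bp and 36.6% (31.3 to 42.2) from 6000 to 8000 bp, so it fell in each wider class. A wider peak also offers more bases for a 2KO peak to meet. The 2KO list as a whole had wider peaks, with a median of 5507 bp against 4764 bp for the control list. The part of either in the order was not tested.

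**Figure D1:**
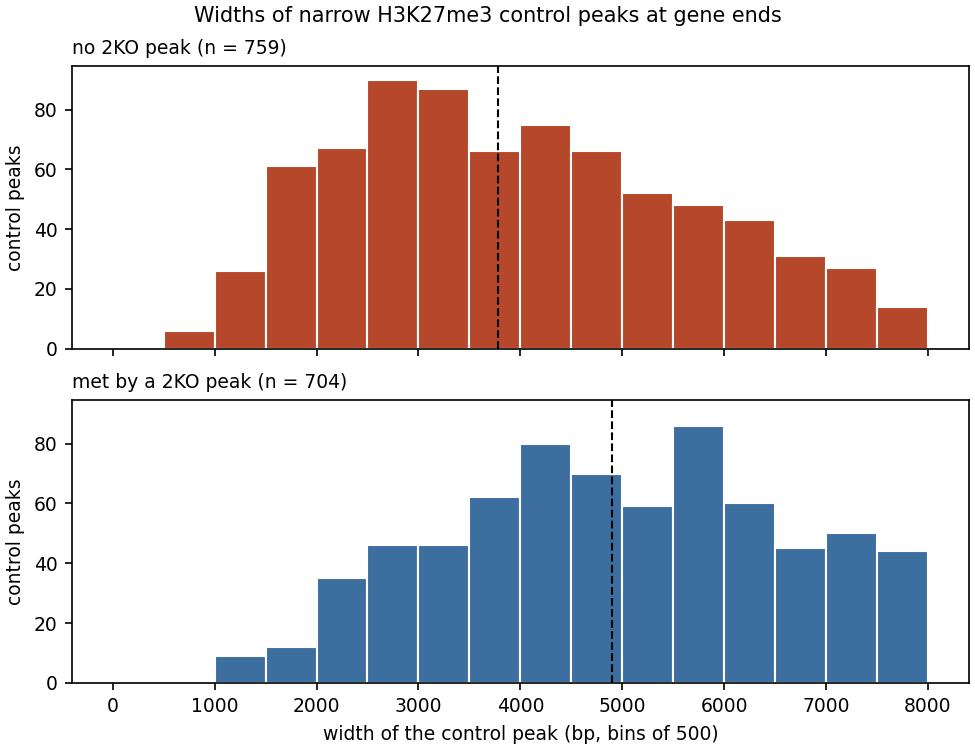
Widths of narrow control H3K27me3 peaks at gene ends, in bins of 500 bp (x axis, bp) against the number of control peaks (y axis), for the 759 without a 2KO peak (top) and the 704 met by one (bottom). Dashed lines mark the medians, 3781 and 4900 bp.

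The widest member lay across 1 end of Kcnq1, a voltage-gated potassium channel gene in an imprinted domain, at chr7:143101525-143109500 (7976 bp). Next came Chst11, a chondroitin sulfotransferase gene, at 7929 bp, the homeobox gene Irx1 at 7916 bp, the phosphodiesterase gene Pde7b at 7884 bp and Shisa2, which encodes an attenuator of Fgf and Wnt receptors, at 7854 bp. A peak of 7709 bp met both the cation channel gene Trpc1 and its neighbour Pls1. The replication gene Mcm10 (7645 bp), Wipf3 (7608 bp), the heparan sulfate sulfotransferase gene Hs6st3 (7599 bp) and the Wnt antagonist gene Nkd1 (7575 bp) completed the 10 widest. The narrowest members were at Arhgap31 (570 bp), the chemokine receptor gene Cxcr5 (617 bp), Rasgrp4 (755 bp), the polysialyltransferase gene St8sia2 (900 bp) and the neighbours Exoc3l and 4931428F04Rik (912 bp). At the width limit, Irx1, Chst11 and Kcnq1 were the last inside. Control-only peaks at Epas1 (8059 bp), Lhfp (8078 bp) and Sema7a (8199 bp) were the first outside, so the limit separates peaks that differ by under 100 bp.

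Most members lay across a gene boundary. Of the 821 pairs, 582 (70.9%, 67.6 to 74.0) had the peak across 1 end of the gene, 150 (18.3%, 15.7 to 21.1) inside the gene within 1 kb of an end, 75 (9.14%, 7.25 to 11.3) outside it within 1 kb, and 14 (1.71%, 0.935 to 2.84) over the whole gene. Of the 780 pairs of shared peaks, 636 (81.5%, 78.6 to 84.2) lay across 1 end, 54 (6.92%, 5.24 to 8.94) inside, 39 (5.00%) outside and 51 (6.54%, 4.91 to 8.51) over the whole gene. Members were thus more often inside a gene near its end and less often over a whole gene, with counting intervals that did not overlap. No test was made, since peaks are not replicates.

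The sets stood furthest apart among the narrowest peaks. Under 3000 bp, 95 of 270 member pairs (35.2%, 29.5 to 41.2) lay inside the gene, against 13 of 113 shared pairs (11.5%, 6.27 to 18.9). From 3000 to 5000 bp the values were 14.8% (11.1 to 19.3) and 10.5% (7.19 to 14.6), and from 5000 to 8000 bp 3.73% and 2.89%, with overlapping intervals in both classes. The whole-gene shares from 5000 to 8000 bp, 4.56% (2.3 to 8.02) for members and 9.97% (7.16 to 13.4) for shared peaks, had intervals that overlapped slightly.

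**Figure D2:**
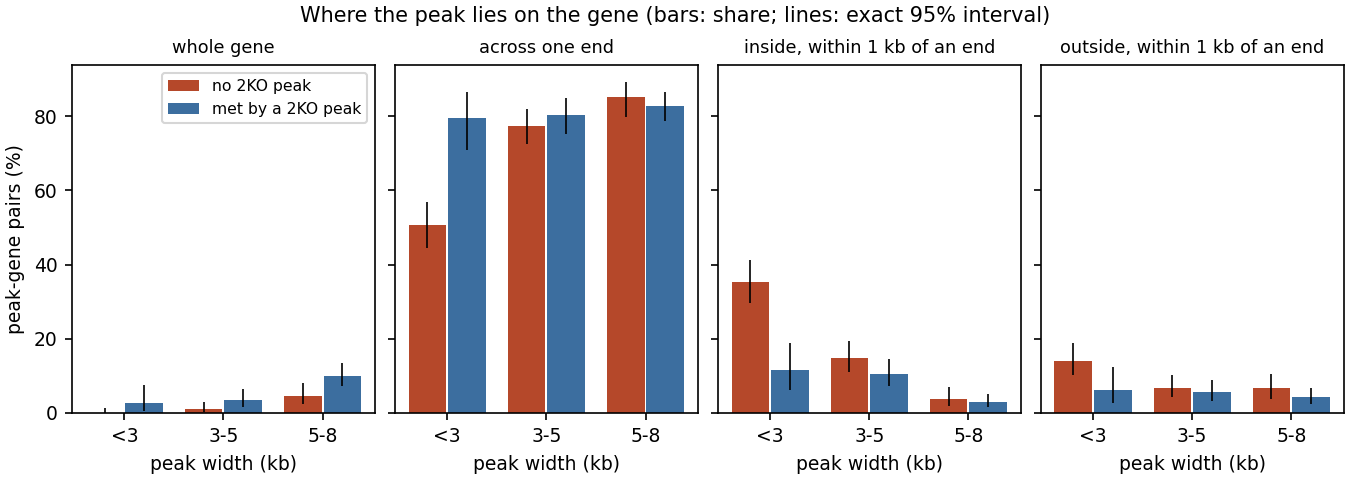
Share of peak-gene pairs (y axis, %) by where the peak lies on the gene (panels) and by peak width (x axis, kb), for narrow gene-end control peaks without a 2KO peak (red) and met by one (blue); lines are exact 95% intervals. Under 3 kb, 35.2% of member pairs and 11.5% of shared pairs lie inside the gene near an end.

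The 14 genes wholly under a member were short, which the width limit of 8000 bp fixes in advance. The longest were Ankrd34a (4.20 kb gene under a 5212 bp peak), Pnmal2 (4.15 kb under 5215 bp), the Gdnf-family receptor gene Gfra4 (3.46 kb under 6418 bp), Gm46725 (3.23 kb under 6535 bp), Fam43a (3.08 kb under 3610 bp) and Tpbgl (3.04 kb under 5992 bp). Genes at members were long as a group, with a median length of 40.1 kb (quartiles 12.2 and 114 kb). All 21631 protein-coding genes had a median of 17.3 kb (5.84 and 44.9 kb). Genes at shared peaks had a lower median, 30.9 kb, and a lower first quartile, 9.4 kb, but a higher upper quartile, 127 kb. Only 163 of the 802 (20.3%, 17.6 to 23.3) were under 10 kb, against 202 of 770 (26.2%, 23.2 to 29.5) at shared peaks and 35.8% of all genes.

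Of all 21631 protein-coding genes, 3.71% (3.46 to 3.97) stood at a member and 3.56% (3.32 to 3.82) at a shared narrow peak. Each family below is read against the first of these values. A control peak of any width stood at 2180 of the genes, and the 802 at members were among them. A share above 3.71% thus does not set a family apart from other marked genes. In all, 274 of the 802 genes belonged to 1 or more of the 25 families described, which were defined by gene symbols, and 528 to none. The intervals given for families count genes, and neighbouring genes can share a peak. The counts also rest on the window of 1 kb at gene ends. With a window of 0 kb 591 of the 21631 genes were met and with 5 kb 1033, and a family count that moved by more than 1.5 times at either window is given beside the family. When the control list was cut to its 2340 widest peaks, as many as the 2KO list, 414 genes were met in place of 802. The 2KO list stayed whole in that setting, and 24 counts of families and marker lists moved by more than 1.5 times.

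Wnt pathway genes were among the most often met, 9 of 56 (16.1%, 7.62 to 28.3), beside 8 (14.3%) at shared peaks. Both ligands and their inhibitors were present. The ligand genes were Wnt11 (6148 bp, over the CpG-dense promoter printed above) and Wnt9a (3804 bp), and the Frizzled receptor genes were Fzd4 (6429 bp) and Fzd9 (2332 bp). Rspo3, whose product amplifies Wnt signalling, had a peak of 4040 bp inside the gene. The secreted antagonists Sfrp2 (4401 bp) and Frzb (2725 bp) and the intracellular antagonists Nkd1 (7575 bp) and Nkd2 (3474 bp) made up the rest. Of the 9, the Nkd1 peak had the nearest 2KO peak, 1.63 kb away.

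Bmp and Tgf-beta pathway genes numbered 10 of 74 (13.5%, 6.68 to 23.5), beside 6 (8.11%) at shared peaks. Ligand genes were Bmp3 (6725 bp), Gdf6 (5336 bp), Bmp8a (2382 bp), Bmp8b (2057 bp) and Bmp4 (1951 bp), the last a peak inside the gene with another control peak 1.74 kb away. The pseudoreceptor gene Bambi (5165 bp), the secreted Bmp antagonist Nog (4005 bp), the Nodal antagonist Lefty1 (1331 bp) and the inhibitory Smad6 (1702 bp) act against the pathway. Acvr1c (3372 bp) encodes a type I receptor. Apart from the genes listed here as ligands, 4 of the 10 encode inhibitors. With a window of 0 kb 6 of the 74 were met.

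Growth factor and receptor tyrosine kinase genes numbered 12 of 124 (9.68%, 5.10 to 16.3), beside 11 (8.87%) at shared peaks. This count depended on the window: at 0 kb 3 of the 124 were met, a share below that over all genes at that window. The widest members were at the neurotrophic factor Gdnf (6770 bp, outside the gene, with another control peak 2.83 kb away), the imprinted growth factor Igf2 (6656 bp), Gfra4 (6418 bp) and Kit (6267 bp), the stem cell factor receptor of melanocytes. Of 35 Hedgehog and Notch pathway genes 3 (8.57%, 1.80 to 23.1) were met, and the same number at shared peaks. They were the Hedgehog-interacting protein relative Hhipl1 (5587 bp), the Notch target Hey1 (2209 bp) and the Notch ligand Dll3 (2158 bp), and with a window of 5 kb 5 were met.

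The ion channel, neurotransmitter receptor, synaptic and axon guidance lists all stood above the 3.71% share over all genes, with lower limits of 4.31% or more. The lowest of these limits was that of the axon guidance list, which counts Slitrk3 by its symbol. Any control peak stood at 70 ion channel, 49 neurotransmitter receptor, 36 synaptic and 27 axon guidance genes. In none of these lists did genes at members form a larger part of marked genes than 802 of 2180 over all genes. Ion channel genes numbered 25 of 193 (13.0%, 8.56 to 18.5), and 25 others stood at shared peaks. Kcnq1 (7976 bp) and the canonical transient receptor potential channels Trpc1 (7709 bp) and Trpc5 (7287 bp) led the list. The calcium channel subunit gene Cacng4 had 2 members, 6482 bp just outside the gene and 1838 bp inside it, 1.16 kb apart. Its relative Cacng7 had 2 as well, 5557 bp across the end that holds its start site and 4302 bp across the other end.

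Neurotransmitter receptor genes were fewer at members than at shared peaks. A member stood at 16 of 126 (12.7%, 7.44 to 19.8) and a shared narrow peak at 30 (23.8%), a difference that was not tested. The widest members were at Gabbr2 (7315 bp), a subunit of the metabotropic GABA receptor, the muscarinic acetylcholine receptor Chrm3 (6339 bp), the dopamine receptor Drd4 (5084 bp) and the nucleotide receptor P2ry6 (5023 bp). P2ry2 (1465 bp) lay beside P2ry6 within a stretch of 42.4 kb.

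Synaptic vesicle and adhesion genes numbered 13 of 83 (15.7%, 8.61 to 25.3), beside 16 (19.3%) at shared peaks. The 4 at the widest members were the neuronal pentraxin Nptx1 (7136 bp), the active zone gene Rims2 (6781 bp), the postsynaptic scaffold Dlgap4 (6710 bp) and the adhesion gene Nlgn1 (5892 bp). All 3 annotated neuronal pentraxin genes of the list were met, since Nptxr (4817 bp) and Nptx2 (4400 bp) had members of their own. The axon guidance list, drawn by symbol and not by function, held 8 of 82 (9.76%, 4.31 to 18.3), beside 9 (11.0%) at shared peaks. Its widest members were at Slitrk3 (7343 bp), which is counted by its symbol, and at the ephrin receptors Epha8 (7207 bp) and Epha3 (4932 bp). Slit3 (5707 bp), a ligand of Robo receptors, was also among them. Axon guidance counts were 5 at a window of 0 kb and 13 at 5 kb. Cadherin and protocadherin genes numbered 6 of 113 (5.31%, 1.97 to 11.2), beside 8 (7.08%) at shared peaks. At a window of 0 kb 3 stood at members, below the share over all genes there. Fat3 (7542 bp), Pcdhac2 (7377 bp), Pcdh11x (4744 bp) and Cdhr2 (4183 bp) had the widest members.

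Receptors and relays of G protein signalling were next. Peptide, lipid and orphan G protein-coupled receptor genes numbered 20 of 189 (10.6%, 6.58 to 15.9), beside 25 (13.2%) at shared peaks. The corticotropin-releasing hormone receptor Crhr1 (7495 bp) stood first, then Prokr1 (5401 bp), Vipr2 (4866 bp) and Gpr45 (4695 bp). Genes of G proteins, small GTPases and cyclic nucleotides numbered 28 of 296 (9.46%, 6.38 to 13.4), beside 19 (6.42%). With equal numbers of peaks the count at members was 7 of 296, beside 414 of all 21631 genes. Pde7b (7884 bp) and Adcy1 (7553 bp), which break down and make cyclic AMP, and the phospholipase C gene Plcb2 (5618 bp) were at the widest. This family also held 3 of the narrowest members, at Arhgap44 (919 bp), Rasgrp4 (755 bp) and Arhgap31 (570 bp).

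Extracellular matrix genes numbered 22 of 144 (15.3%, 9.83 to 22.2), beside 18 (12.5%) at shared peaks. The membrane-type metalloproteinase Mmp17 (7180 bp), Emilin3 (6642 bp), and the fibrillins Fbn2 (6340 bp) and Fbn1 (4644 bp) were at the widest. Col1a1, the main fibrillar collagen gene of dermal fibroblasts, had a member of 3771 bp with another control peak 0.966 kb away. Solute carrier genes numbered 29 of 389 (7.46%, 5.05 to 10.5), beside 19 (4.88%), and included Slco5a1 (6928 bp), the amino acid transporter Slc7a8 (6636 bp) and Slc16a9 (6523 bp). Claudin, connexin and integrin genes numbered 7 of 91 (7.69%, 3.15 to 15.2), beside 10 (11.0%) at shared peaks. The 7 were led by Cldn23 (5899 bp), Itga9 (5559 bp), Gja3 (4046 bp) and Gjc1 (3674 bp).

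Transcription factor genes, the classical targets of Polycomb, varied by family. Homeobox genes numbered 10 of 200 (5.00%, 2.42 to 9.0) at members and 10 at shared narrow peaks, while 131 stood at control peaks of 8000 bp or more. The homeobox count at members was 2 at a window of 0 kb, below the share over all genes there, and 18 at 5 kb. The widest members were at Irx1 (7916 bp), Otx1 (6868 bp), Phox2a (6666 bp) and Tshz3 (5454 bp). Both Irx1 and Otx1 had the peak outside the gene, with the nearest other control peak 324 kb and 1.05 kb away. Fox, Sox, T-box and Gata genes numbered 3 of 85 (3.53%, 0.734 to 9.97), beside 7 (8.24%) at shared narrow peaks and 43 at wide control peaks. The 3 were Sox8 (6998 bp), Foxo1 (5846 bp) and Sox13 (4327 bp). Basic helix-loop-helix genes numbered 9 of 66 (13.6%, 6.43 to 24.3), beside 9 others (13.6%) at shared narrow peaks and 29 at wide control peaks. Those at members were led by the clock-related repressor Bhlhe41 (7567 bp), Atoh8 (6572 bp), Ebf4 (6221 bp) and Npas3 (6059 bp).

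C2H2 zinc finger genes numbered 11 of 549 (2.00%, 1.00 to 3.56), beside 14 (2.55%) at shared peaks. Sall1 (7434 bp), Zfp385b (6008 bp), Prdm1 (5901 bp) and Zfp853 (5103 bp) had the widest members, and 22 genes were met at a window of 5 kb. The 3 nuclear receptor genes of 48 (6.25%, 1.31 to 17.2) were Nr2f2 (6171 bp), the progesterone receptor Pgr (4361 bp) and the vitamin D receptor Vdr (1685 bp). At a window of 5 kb 5 were met, and 5 others (10.4%) stood at shared peaks with the window of 1 kb.

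Cytokine, chemokine and immune receptor genes numbered 15 of 399 (3.76%, 2.12 to 6.12), close to the share over all genes, beside 7 (1.75%) at shared peaks, and 5 with equal numbers of peaks, below the share over all genes in that setting. They included both Tnfrsf11a (5211 bp) and its ligand Tnfsf11 (5025 bp), beside Tnfrsf25 (7439 bp) and Cd63 (5341 bp). Enzymes of lipid, steroid and drug metabolism numbered 8 of 279 (2.87%, 1.25 to 5.57), beside 6 (2.15%) at shared peaks. The 8 were led by the retinoic acid synthesis gene Aldh1a3 (5075 bp), Elovl4 (4011 bp), Cyp1b1 (3537 bp) and Fads6 (3295 bp). The muscle contraction list, also drawn by symbol and not by function, held 3 of 60 (5.00%, 1.04 to 13.9), beside 4 (6.67%) at shared peaks. At a window of 5 kb members met 5. The 3 were Ryr2 (4929 bp), Des (4855 bp) and Myh10 (2498 bp), the last counted by its symbol. Of 319 ribosome, proteasome and respiratory chain genes 1 was met, Ndufa4l2 (2530 bp), and of 1518 olfactory, vomeronasal and taste receptor genes 1, Olfr544, which had 2 members (3244 and 3213 bp). At a window of 5 kb these counts were 3 and 2, and at 0 kb 0 and 1. At shared narrow peaks, with the window of 1 kb, the counts were 0 and 3. Keratin and keratin-associated genes numbered 2 of 109 (1.83%, 0.223 to 6.47), Krt19 (3610 bp) and Krt87 (3593 bp), and 0 at shared narrow peaks.

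**Figure D3:**
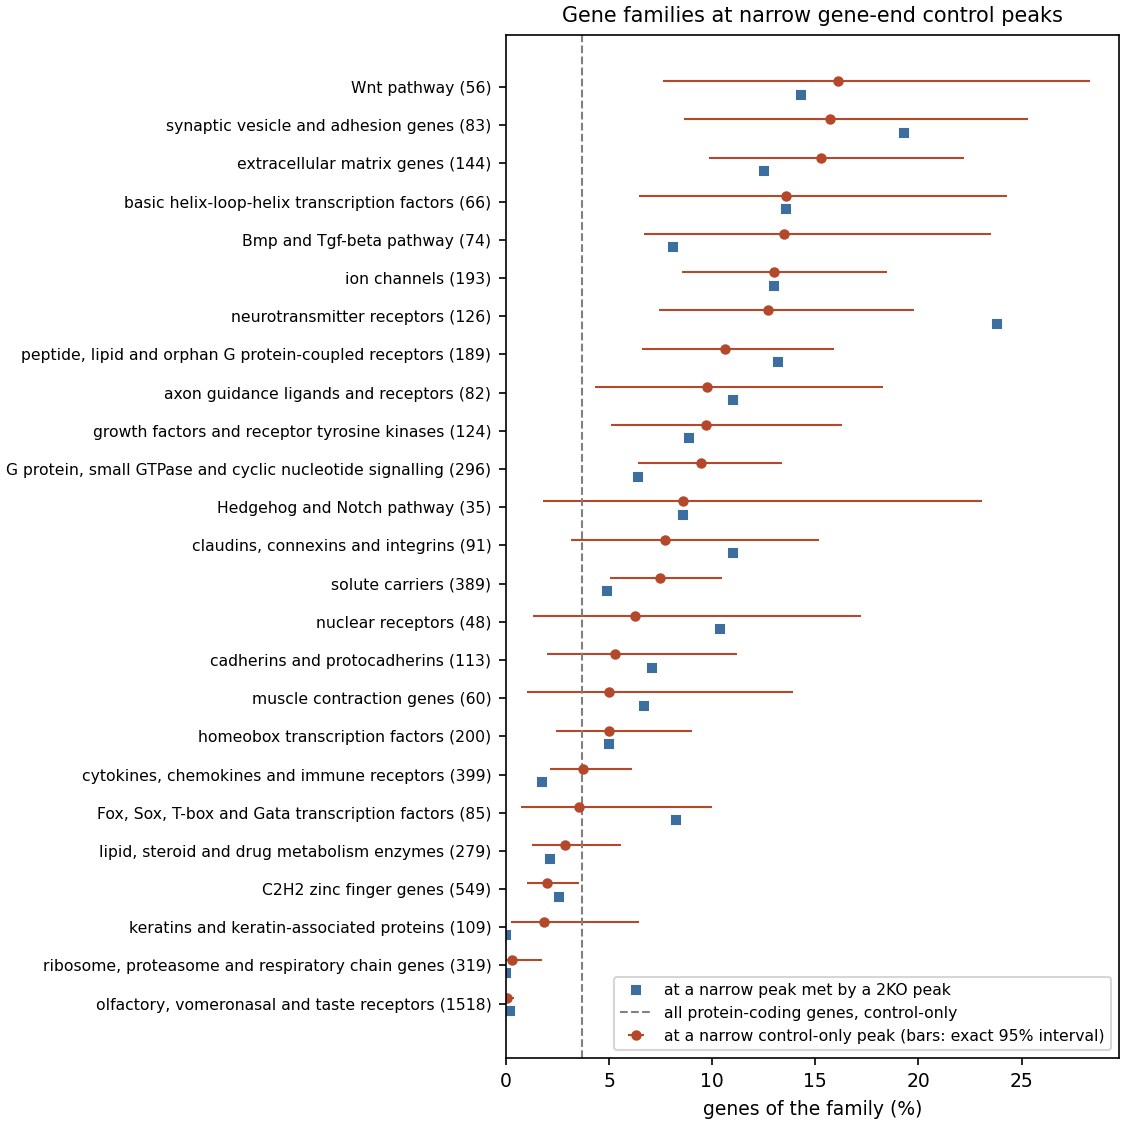
Share of the genes of each family (x axis, %) at a narrow control-only gene-end peak (red points with exact 95% intervals) and at a narrow peak met by a 2KO peak (blue squares), with the number of annotated genes in brackets. The dashed line is the control-only share over all protein-coding genes, 3.71%; Wnt pathway genes stand highest at 16.1% and olfactory, vomeronasal and taste receptors lowest.

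Basal marker genes, which define the sorted cells, carried none of these peaks. None of 24 basal progenitor genes (upper exact limit 14.2%) and none of 20 housekeeping genes (16.8%) stood at a member or at any other control peak. Of 38 epidermal differentiation genes 4 stood at a member (10.5%, 2.94 to 24.8), the terminal differentiation regulator Prdm1 (5901 bp), Elovl4 (4011 bp), the trichohyalin gene Tchh (3442 bp) and the lipoxygenase Alox12b (2870 bp) of the skin barrier. Just 1 gene of the list stood at a shared narrow peak. The 3 hair follicle genes of 46 (6.52%, 1.37 to 17.9), Bmp4 (1951 bp), Msx2 (1737 bp) and Vdr (1685 bp), had members under 2000 bp. This count depended on the settings: it was 0 at a window of 0 kb, 8 at 5 kb, and again 0 when the control list was cut to its 2340 widest peaks.

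Markers of other cells of the skin were met in varying number. Dermal fibroblast genes numbered 5 of 24 (20.8%, 7.13 to 42.2), Fbn1 (4644 bp), Vim (4190 bp), Col1a1 (3771 bp), Lrrc15 (3668 bp) and Pdgfrb (1371 bp), beside 1 at shared narrow peaks. Melanocyte genes numbered 3 of 14 (21.4%, 4.66 to 50.8), Kit (6267 bp), the endothelin receptor Ednrb (1960 bp) and Gpr143 (1957 bp), beside 2 (14.3%) at shared peaks. Schwann cell and nerve genes numbered 3 of 22 (13.6%, 2.91 to 34.9), Ngfr (5081 bp), Fabp7 (4780 bp) and Egr2 (4361 bp), beside 6 at shared peaks. Merkel cell genes numbered 2 of 24 (8.33%), Cacna1h (5383 bp) and Nrcam (3420 bp), or 0 at a window of 0 kb and 4 at 5 kb. Another 2 Merkel cell genes (8.33%) stood at shared peaks. The list of adipocyte and smooth muscle genes held 2 of 23 (8.7%), Des (4855 bp) and Myocd (3904 bp), beside 5 (21.7%) at shared peaks. None of 20 endothelial genes, 20 immune genes or 23 cell cycle inhibitor and p53 pathway genes stood at a member, beside 3, 0 and 1 at shared narrow peaks, and 1 endothelial gene was met at a window of 5 kb. Control peaks of 8000 bp or more stood at 9 Merkel cell, 9 dermal fibroblast and 7 endothelial genes. They stood at 4 Schwann cell, 3 adipocyte and smooth muscle, 3 cell cycle, 1 melanocyte and 1 immune gene. Peak lists hold no RNA, so the part of any admixed cells in either list was not tested.

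Imprinted genes were met in 6 of 38 cases (15.8%, 6.02 to 31.3), beside 3 (7.89%) at shared peaks. The members were at Kcnq1 (7976 bp), Igf2 (6656 bp), the organic cation transporter Slc22a2 (4793 bp), Ascl2 (2985 bp), Asb4 (2167 bp) and Peg12 (2016 bp). Kcnq1, Ascl2 and Igf2 lie in the neighbouring imprinted domains of chromosome 7, where the 3 peaks spanned positions 142659410 to 143109500. Of 35 Polycomb genes 2 were met, or 1 at a window of 0 kb: Epop (6653 bp, over the whole gene), which encodes a partner of Polycomb repressive complex 2, and Bmi1, a subunit gene of Polycomb repressive complex 1. The Bmi1 locus had 2 members, 1508 bp inside the gene and 6535 bp beyond its other end over Gm46725 and beside Spag6, and a 2KO peak lay 2.98 kb from the second.

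Non-coding genes lay under some members. A long non-coding RNA gene was under 133 of the 759 (17.5%, 14.9 to 20.4) and under 140 of the 704 shared peaks (19.9%, 17.0 to 23.0), and a miRNA gene under 6 (0.791%) and 3 (0.426%). The miRNA pair Mir34b and Mir34c, textbook p53 targets, lay under the member at the neighbouring genes Hoatz and Btg4 (7227 bp, chr9:51099329-51106555, with no 2KO peak within 171 kb). Their mature arms listed by RefSeq are printed because this was the only member over more than 1 miRNA gene. Seeds, bases 2 to 8, are in capitals, and the arms lie on the minus strand.
miR-34b-5p: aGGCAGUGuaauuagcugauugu
miR-34b-3p: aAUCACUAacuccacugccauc
miR-34c-3p: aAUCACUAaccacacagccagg
The 3p arms of both miRNAs share 1 seed, and miR-34b-5p has another. The other miRNA genes under members were Mir6973b (Gfra4), Mir8109 (Neto2), Mir8110 (Sall1), Mir6538 (Rnf144a) and Mir5130 (Kctd12).

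The distance of members from 2KO peaks follows in part from their selection and is given as a description. The nearest 2KO peak was a median of 336 kb away, with quartiles at 84.6 and 940 kb and a range of 0.83 kb to 15 Mb. It lay within 5 kb of 32 members (4.22%), within 10 kb of 46 (6.06%), within 100 kb of 204 (26.9%) and within 1000 kb of 587 (77.3%). The nearest cases were Mypop (830 bp), the G protein gene Gnao1 (1093 bp), the metalloprotease gene Adam19 (1267 bp), Hpcal4 (1284 bp) and Raet1e (1569 bp). The most distant were Rasef (15 Mb), Arhgap6 (13.2 Mb), Pcdh11x (9.47 Mb), Pappa (6.91 Mb) and Chrm3 (6.74 Mb).

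Distances to other control peaks did not enter the selection. The nearest other control peak was a median of 154 kb from a member (quartiles 32.9 and 413 kb), against 184 kb (44.9 and 574 kb) from a shared peak. Another control peak lay within 10 kb of 109 members (14.4%, 11.9 to 17.1) and of 68 shared peaks (9.66%, 7.58 to 12.1), with intervals that overlapped slightly. Within 100 kb the shares were 38.6% and 38.2%. The member share within 10 kb was 11.1% at a window of 0 kb and 11.3% with no 2KO peak within 5 kb. It was 9.61% with equal numbers of peaks, and 12.7 to 16.6% under the other settings run. The share for shared peaks was not computed in these settings. Wide control peaks of 8000 bp or more were within 50 kb of 65 members (8.56%, 6.67 to 10.8) and of 39 shared peaks (5.54%, 3.97 to 7.50), with overlapping intervals.

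**Figure D4:**
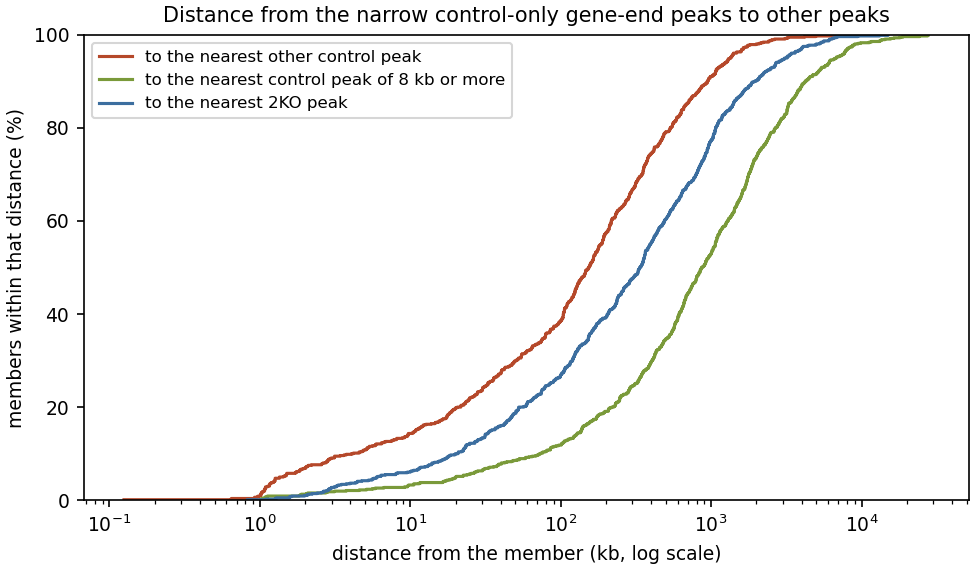
Cumulative share of the 759 members (y axis, %) against distance (x axis, kb, log scale) to the nearest other control peak (red), the nearest 2KO peak (blue) and the nearest control peak of 8 kb or more (green). Medians are 154, 336 and 866 kb; the curves rest on lists of different length, and members were chosen for having no base in common with a 2KO peak.

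Some members lay in runs or at more than 1 gene. With a gap of at most 100 kb, 93 members formed 45 runs. The runs of 3 were Phyh, Mcm10 and Optn over 145 kb, Gfra4 with 2 peaks at Adam33 over 28.3 kb, and Stac3 and Ndufa4l2 with 2 peaks at Nxph4 over 27 kb. Shorter runs joined Des and Speg, both of muscle, over 18.1 kb and Crabp2 and Nes over 25.6 kb. Of the 759 members, 700 met 1 gene, 56 met 2 and 3 met 3, namely Bmi1 with Gm46725 and Spag6, Anxa9 with Cers2 and LOC115489748, and Ankrd34a with Lix1l and Polr3gl. Of the 704 shared peaks, 629, 74 and 1 did so.

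At 19 genes 2 members stood at the ends: Adam33, Bmi1, Cacng4, Cacng7, Cited1, Clcf1, Cnr1, Espn, Gprin1, Hhipl1, Hs3st3a1, Kalrn, Lingo3, Nxph4, Olfr544, Slc22a23, Tmem198, Zfp697 and Zfp853. For Cnr1, the cannabinoid receptor gene, they were 3729 bp inside the gene and 1948 bp outside it, 1.26 kb apart, and for the synaptic ligand gene Nxph4 7033 and 3730 bp, 1.5 kb apart. A control-only peak did not always mean a gene without other peaks: 17 of the 802 genes also stood at a shared narrow peak, 19 at a control peak of 8000 bp or more, 24 had a 2KO peak at an end and 55 had one in the gene or within 1 kb of it.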

How the data were processed

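H3K27me3 chromatin immunoprecipitation was sequenced in sorted epidermal progenitors, and groups came from the sample titles and genotype labels. Bowtie2 2.3.3.1, SAMtools 1.9 and build mm10 are named per the submitters' processing notes. For each genotype the authors deposited 1 list of peak positions (chromosome, start, end), without any score, height or p-value. How peaks were called, at which threshold, with or without input and on pooled or separate replicates is not given in the sources used here. Depth is not held in the lists. Start positions, taken as 0-based, are printed 1-based.

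Peaks overlapped when they shared 1 bp. Genes and promoter windows came from RefSeq tables of GRCm38.p6. The gene table gives no strand, exon or UTR, so a gene end is either boundary. Overlaps, widths and distances came from scripts in Python 3.11.15 (pandas 2.3.3, numpy 2.4.6). Intervals are exact (Clopper-Pearson) 95% intervals from scipy 1.17.1, and figures were drawn with matplotlib 3.10.9. The overlap code of the selection was checked on simulated lists of shorter peaks, with a smaller window and width limit than used here. In 20 pairs of lists holding 2400 peaks, 115 of 115 members were found, with 0 wrong. With 1 list per genotype, no test between genotypes was made. The planned checks of start-site position and CpG content over the set were void for want of entries in the promoter table.

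Members, families and marker lists were chosen with earlier results of these data known. Genes were named by a rule: the 10 widest and 5 narrowest members, up to 4 genes at the widest members per list, genes with 2 members, the longest wholly covered genes, peaks at 3 genes, the 5 nearest and 5 farthest from a 2KO peak, and those at the width limit. Other genes named were chosen after their values were seen, and some genes that the rule names are not reported here. Alternatives changed the window at gene ends, the width limit, the overlap, the gap to 2KO peaks, merging, the chromosomes, the genes counted and the number of peaks.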

Additional observations from a re-analysis of the deposited data

How the results depend on the processing

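The share of narrow gene-end control peaks without a 2KO peak, 51.9%, was 47.0% with no window around gene ends. It was 60.2% with narrow meaning under 5000 bp and 42.3% when the control list alone was cut to its 2340 widest peaks. That last setting left 385 members at 414 genes, where 759 stood at 802, and a median width of 5255 bp. The share stayed between 49.6 and 53.9% under the other settings. Member numbers ran from 544 to 921 over all settings but that of equal numbers, and genes from 570 to 1142, the latter when genes of every type were counted. Of 156 counts for families and marker lists, 44 moved by more than 1.5 times, 24 of them with equal numbers of peaks. The cause was not tested. Alternatives for start sites and CpG content were not run, since those checks were void. No paired analysis was possible because a genotype's libraries are represented by 1 list without replicate columns, which also means that no replicate could be omitted. Depth per library is unknown, so the loss of weak peaks from a shallower 2KO list cannot be told apart from loss of the mark.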

Other observations

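The share of narrow gene-end control peaks without a 2KO peak was lowest on chromosome 7 (54 of 127, 42.5%, exact 95% interval 33.8 to 51.6) and highest on the X chromosome (22 of 32, 68.8%, 50.0 to 83.9), with intervals that overlapped slightly. Major histocompatibility genes on chromosome 17 had 5 members, at H2-T3 (3135 bp), H2-Q10 (2822 bp), H2-Ab1 (2406 bp), H2-Q7 (2012 bp) and H2-K1 (1868 bp). H2-Q7 and H2-Q10 lay within 32.8 kb of each other. These genes belong to a family of related sequences, and how the aligner placed reads that match several of them was not tested.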
